A study of Homo sapiens with 6 samples.

Results

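The genes described here are 10 inputs and feedback genes of STAT3 signalling: the cytokines LIF and IL11, the receptor chains IL6R, IL6ST, LIFR, OSMR and IL22RA1, and the feedback inhibitors SOCS1, SOCS2 and SOCS3. They were taken by name from a deposited expression table of 31016 genes, where each name matched a single row, and all 10 passed the filter on low counts that left 18265 genes for testing. RNA came from DLD-1, an established human colorectal adenocarcinoma line. The TGFb_TFA group (3 libraries) was given TGF-β and then, after 24 h by the study design, TFA, a mixture of all flavones from Abelmoschus manihot, and the TGFb group (3 libraries) was given TGF-β without it. TGF-β, a growth factor that drives epithelial cells towards a mesenchymal state, was thus present in every library, no library without it is used here, and a response to TGF-β itself cannot be read. The labels give 24 h of treatment for the libraries numbered 1, 25 h for those numbered 2 and 26 h for those numbered 3, in both groups. The steps of 1 h match the replicate numbers and the study design names 24 h only, so these times are uncertain. The labels give no dose, and nothing in them says whether the libraries came from separate cultures, so p-values measure only the spread between these libraries. The study asked whether TFA acts on STAT3 and on the epithelial-mesenchymal transition in these cells.

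Most IL-6 family cytokines signal by bringing receptor chains together around the shared chain gp130, the product of IL6ST. Kinases of the JAK family bound to the chains then phosphorylate STAT3, which enters the nucleus and turns on genes that include SOCS3. SOCS proteins bind the receptors or the kinases and shut the signal off. IL-22 reaches STAT3 by another receptor, formed by IL22RA1 and IL10RB, and is known in the gut as a cytokine from immune cells that acts on the epithelium. RNA levels measure neither the receptors at the cell surface nor the phosphorylation of STAT3.

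Total estimated counts ran from 60361756 to 68745953 per library. In each library 1032 to 1271 genes had a deposited count of 4, against 601 to 685 genes with 3 and 345 to 396 with 5, so a single fragment may add about 4 counts and low counts stand for few fragments. With counts divided by 4, only 6 of the 10 genes passed the filter, and LIFR, IL11, SOCS1 and SOCS3 did not. The TGFb_TFA 3 library departed from the others with transcript length: against the mean of the 6 libraries, the shortest 10% of tested genes had a median of 0.36 there and the longest 10% a median of -0.33 (log2 CPM, counts scaled to library size). In the other 5 libraries these medians lay between -0.16 and 0.20. On the first principal component TGFb 1 was far from the rest (99.6, with the others from -50.5 to -5.1). Of the 10 epithelial markers with a row, EPCAM (186 to 210 FPKM, fragments scaled by transcript length and library total), CDH1, KRT8, KRT18, KRT19, KRT20 and CDX2 stood at 9.29 FPKM or more in every library. VIL1 and LGALS4 were at 0.302 FPKM or less, and CEACAM5 was at 0.0732 FPKM or less and listed at 0 in TGFb_TFA 2, TGFb_TFA 3 and TGFb 2. Among 10 fibroblast markers the summed level was 0.464 to 2.40 FPKM in the TGFb_TFA libraries and 0.0630 to 0.373 FPKM in the TGFb libraries. COL3A1, DCN and LUM were listed at 0 in all TGFb libraries. COL3A1 and DCN were also at 0 in TGFb_TFA 1, and LUM in TGFb_TFA 1 and TGFb_TFA 2. Fibroblasts are a known source of LIF, IL6 and IL11, and the part of these traces in the values of the 10 genes was not tested.

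None of the 10 genes passed the test for a difference with TFA. All of them had an adjusted p of 0.9997 in edgeR's quasi-likelihood test with Benjamini-Hochberg adjustment over all 18265 genes, in which 0.0109% of tested genes were called (2 genes, none of them among the 10). At an unadjusted p under 0.05 there were 0 of the 10, against 1.83% of all tested genes (1.07% higher and 0.761% lower with TFA), and DESeq2 called 0 of the 10 as well, against 0.0712% of all. Fitted values were above 0 in 6 genes and below 0 in 4, with a median log2 fold change of 0.04, beside a median of 0.01 over all tested genes. IL6R was the one gene of the 10 whose groups did not overlap, lower with TFA, against 3.73% of all tested genes not overlapping in that direction, 4.22% in the other and 7.95% in either.

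**Figure D1:**
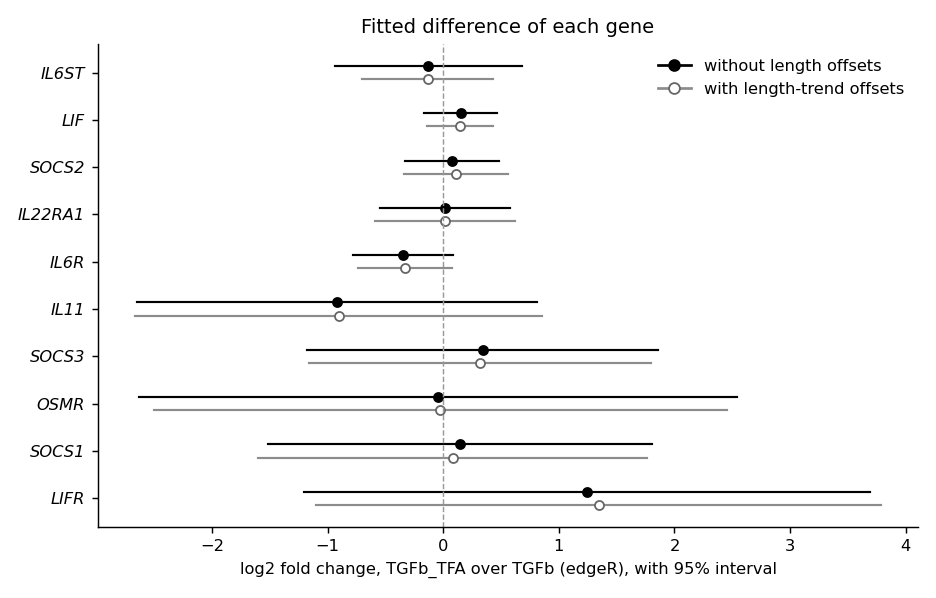
Fitted log2 fold changes of the 10 genes, TGFb_TFA over TGFb, with 95% intervals, from edgeR without (filled) and with (open) a correction of each library for transcript length; genes run from the highest to the lowest mean FPKM. All intervals hold 0, and they widen from LIF (-0.16 to 0.47) to the genes near 0.1 FPKM and below.

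The 10 genes spanned a wide range of levels. In order of mean FPKM over the 6 libraries, the levels were 21.2 for IL6ST, 7.06 for LIF, 1.56 for SOCS2, 1.02 for IL22RA1 and 0.535 for IL6R. Each of these 5 genes lay above the next one in all 6 libraries, with no overlap of their ranges. Below them IL11 (0.115 FPKM), SOCS3 (0.103), OSMR (0.103) and SOCS1 (0.0958) had overlapping ranges, and their order changed between libraries. LIFR was lowest at 0.0274 FPKM, under SOCS1 in all 6 libraries. IL6ST had a higher mean FPKM than 89.7% of tested genes and LIFR than 2.06%.

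**Figure D2:**
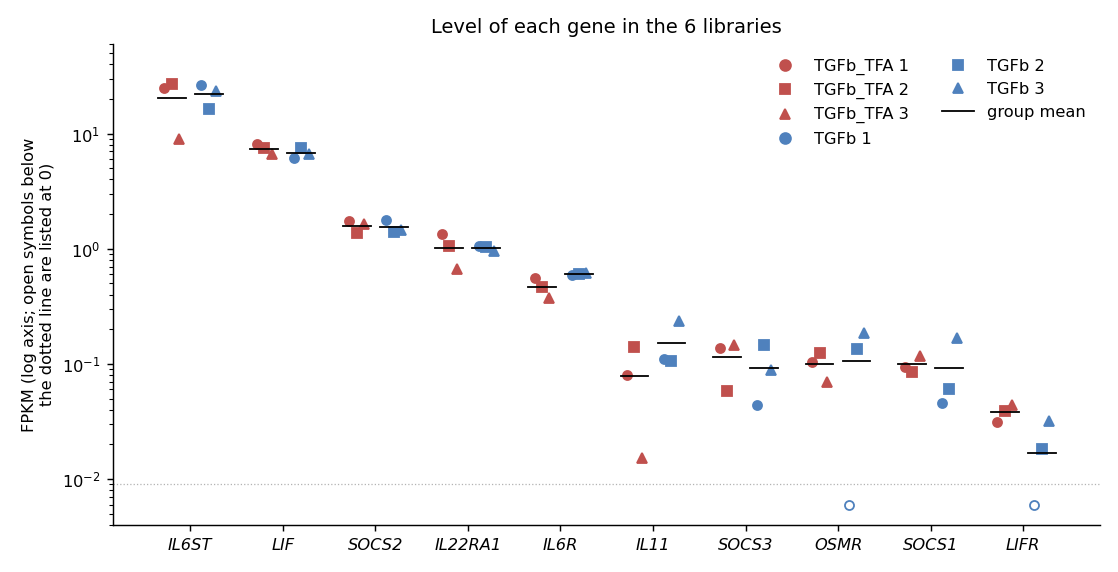
FPKM of each gene in each library on a log axis, TGFb_TFA libraries in red and TGFb libraries in blue, with bars at the group means; open symbols under the dotted line are values listed at 0. The 5 genes on the left, from IL6ST to IL6R, keep their order in all 6 libraries, while the 5 on the right lie at or under 0.238 FPKM, and the TGFb_TFA 3 triangle stands low for IL6ST.

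Positions of genes are those of the deposited table (GRCh38). LIF (ENSG00000128342, chr22:30240453-30246759, minus strand), leukaemia inhibitory factor, was the more abundant of the 2 ligands. It had 8.10, 7.44 and 6.58 FPKM in TGFb_TFA 1 to 3, against 6.09, 7.51 and 6.66 FPKM in TGFb 1 to 3. The groups overlapped, with the lowest value in TGFb 1 and the highest in TGFb_TFA 1. Means were 7.38 ± 0.760 FPKM with TFA and 6.75 ± 0.715 FPKM without (SD, n = 3 each), and the log2 fold change of 0.15 had a 95% interval of -0.16 to 0.47, which holds falls to 0.893 of the level without TFA and rises to 1.38 times that level. This was the narrowest interval among the 10 genes.

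IL11 (ENSG00000095752, chr19:55364382-55370463, minus strand), which signals through IL11RA and gp130 and is known as a gene that TGF-β induces in fibroblasts, was seen at few counts. Its counts were 16, 27 and 3 in TGFb_TFA 1 to 3, against 24, 22 and 46 in TGFb 1 to 3. On the FPKM scale its mean was 0.0783 ± 0.0622 with TFA and 0.152 ± 0.0745 without (SD, n = 3 each). The groups overlapped, TGFb_TFA 3 was lowest and TGFb 3 highest, and the fitted log2 fold change of -0.92 had an interval of -2.65 to 0.81. Its size rested on single libraries: without TGFb_TFA 3 it was -0.46, and the other fits without 1 library reached -1.56.

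IL6ST (ENSG00000134352, chr5:55935095-55995022, minus strand) encodes gp130, the chain that most IL-6 family receptors share. It had 25.0, 26.8 and 8.92 FPKM in TGFb_TFA 1 to 3, against 26.5, 16.3 and 23.5 FPKM in TGFb 1 to 3. The other 5 libraries lay at 16.3 FPKM or more, and TGFb_TFA 3 stood below them all. The log2 fold change of -0.13 (SE 0.35, interval -0.94 to 0.68) turned on single libraries. Without TGFb_TFA 3 it was 0.19, without TGFb 1 it was 0.02, and without both it was 0.33, with an unadjusted p of 0.0939 and an adjusted p of 0.887 in edgeR.

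TGFb_TFA 3 was also the library in which long genes read low, and the part of this in the IL6ST value was not tested beyond the correction given here. IL6ST lay in class 9 of 10 classes of tested genes by effective length (count divided by FPKM). Against the mean of the 6 libraries its log2 CPM was -0.98 in TGFb_TFA 3, while the median of its length class there was -0.24. The same gene stood at -0.27 in TGFb 2, the other library in which long genes were low. Offsets that remove the length trend left its log2 fold change at -0.13 and narrowed the interval to -0.70 to 0.43. Genes nearest to IL6ST were sought only among tested genes whose CPM averaged 1 or more over the 6 libraries. The nearest of these were DDX46, SREK1 and EHBP1, which lay in length classes 9 and 10. Their mean absolute differences from IL6ST over the 6 libraries were 0.025, 0.033 and 0.035 in centred log2 CPM.

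**Figure D3:**
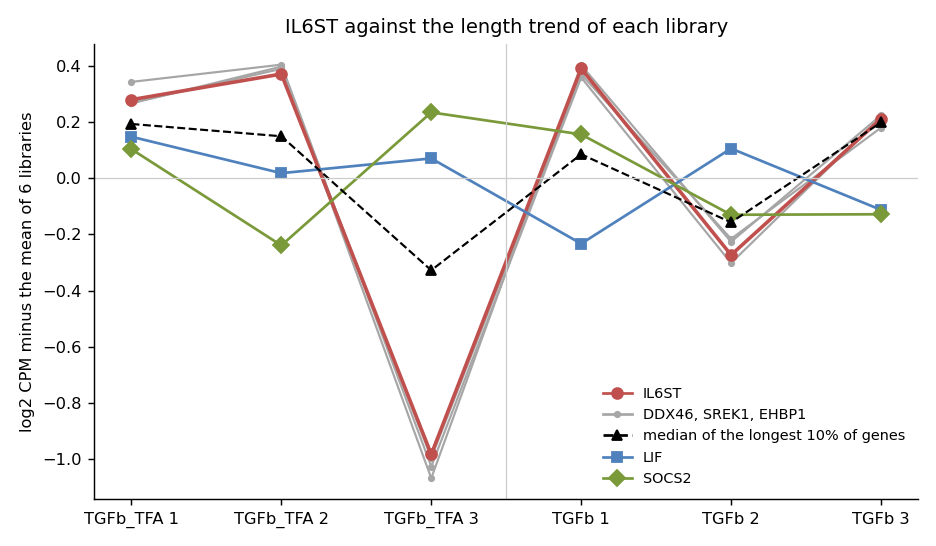
Log2 CPM minus the mean of the 6 libraries, in each library. Shown are IL6ST (red), the 3 nearest of the genes searched (grey), LIF (blue) and SOCS2 (green). Dashed black marks the median of the longest 10% of tested genes. IL6ST falls to -0.98 in TGFb_TFA 3 and the long-gene median to -0.33, while LIF and SOCS2 stay at 0.07 and 0.24 there.

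IL6R (ENSG00000160712, chr1:154405193-154466877, plus strand), the chain that binds IL-6 itself, had 0.559, 0.466 and 0.375 FPKM in TGFb_TFA 1 to 3, against 0.598, 0.598 and 0.615 FPKM in TGFb 1 to 3. All 3 TGFb_TFA libraries lay below all TGFb libraries, which stood close together. Means were 0.467 ± 0.0915 FPKM with TFA and 0.603 ± 0.00985 FPKM without (SD, n = 3 each). In edgeR this gave a log2 fold change of -0.35 (SE 0.18) whose interval of -0.78 to 0.08 holds 0, and its p of 0.0984 did not pass even unadjusted. It kept its sign without each library in turn (-0.47 to -0.28).

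LIFR (ENSG00000113594, chr5:38474668-38595404, minus strand), the partner of gp130 in the LIF receptor, was near 0. Its counts were 26, 34 and 38 in TGFb_TFA 1 to 3, against 0, 17 and 28 in TGFb 1 to 3. The groups overlapped, and the fitted log2 fold change of 1.24 had an interval of -1.20 to 3.69. Set beside its ligand, LIFR was at most 0.00671 of the LIF level in any library (FPKM), and IL6ST was 202 to 894 times as high as LIFR in the 5 libraries where LIFR was above 0.

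OSMR (ENSG00000145623, chr5:38845858-38945596, plus strand), which pairs with gp130 to bind oncostatin M, had 51, 64 and 35 counts in TGFb_TFA 1 to 3, against 0, 71 and 94 in TGFb 1 to 3. The value of 0 in TGFb 1 is the only one outside 35 to 94 counts, and the groups overlapped (log2 fold change -0.05, interval -2.63 to 2.54). Without TGFb 1 the fitted value was -0.63, and other fits without 1 library reached 0.56. TGFb 1 is also the library in which LIFR was listed at 0. The fibroblast markers COL1A2 and THY1 and the endothelial markers VWF and KDR were likewise at 0 in that library only. Other markers of these lists, such as PDGFRB, FAP, TEK and ESAM, were above 0 there. A shared source of these zeros was not tested. The table's OSMR overlaps RICTOR on the opposite strand, with 229 shared exon bases in GENCODE 29. RICTOR had 1539 to 4535 counts, and the sources used here do not say whether the authors counted by strand, so the OSMR counts are uncertain. TGFb 1, where OSMR was at 0, held the highest RICTOR count.

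IL22RA1 (ENSG00000142677, chr1:24119771-24143140, minus strand), a chain of the IL-22 receptor, had 1.33, 1.06 and 0.670 FPKM in TGFb_TFA 1 to 3, against 1.06, 1.04 and 0.952 FPKM in TGFb 1 to 3. The TGFb_TFA libraries spanned both the highest and the lowest value, and the TGFb libraries lay between them. The log2 fold change was 0.02 (interval -0.55 to 0.58), and its sign turned in fits on FPKM. Its partner IL10RB had 2.40 ± 0.155 FPKM with TFA and 2.45 ± 0.218 FPKM without (SD, n = 3 each), 1.78 to 3.84 times as high as IL22RA1 within a library. Both chains of this receptor were thus at 0.670 FPKM or more in every library. LIFR and OSMR were at 0.184 FPKM or less, IL6R at 0.615 FPKM or less and IL11RA at 0.338 FPKM or less.

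SOCS2 (ENSG00000120833, chr12:93569814-93583487, plus strand), best known for damping growth hormone signalling, was the most abundant of the 3 feedback genes. It had 1.73, 1.37 and 1.63 FPKM in TGFb_TFA 1 to 3, against 1.76, 1.40 and 1.45 FPKM in TGFb 1 to 3. The groups overlapped, with a log2 fold change of 0.07 (SE 0.18, interval -0.33 to 0.48). SOCS2 also overlaps SOCS2-AS1 on the opposite strand (277 shared exon bases), which had 0 to 40 counts against 623 to 882 for SOCS2.

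SOCS3 (ENSG00000184557, chr17:78356778-78360077, minus strand), the feedback inhibitor that STAT3 induces and that binds gp130, was at trace level. Its counts were 26, 12 and 28 in TGFb_TFA 1 to 3, against 10, 30 and 18 in TGFb 1 to 3. High and low values stood in both groups, and the log2 fold change of 0.34 had an interval of -1.18 to 1.86, so a 3.63-fold rise and a fall to 0.442 of the level without TFA both lie inside it. SOCS1 (ENSG00000185338, chr16:11254408-11256204, minus strand), which inhibits JAK kinases directly and is known as a target of interferon, had 12, 11 and 15 counts in TGFb_TFA 1 to 3, against 7, 9 and 22 in TGFb 1 to 3. The TGFb 3 value was highest and the other values of TGFb were lowest, with a log2 fold change of 0.14 (interval -1.52 to 1.80). Leaving out TGFb 1 and TGFb_TFA 3 turned both signs, to -0.32 for SOCS3 and -0.41 for SOCS1. Among tested genes whose CPM averaged 1 or more, those nearest to SOCS3 over the 6 libraries were SMG1P6, AC016876 and AC011495. Their mean absolute differences from it were 0.16 to 0.19 in centred log2 CPM. SOCS3 itself lay below that cut, at 0.143 to 0.519 CPM, so genes at its own level were not searched.

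The start regions of these genes were searched for letters based on those that STAT, AP-1 and IRF factors are known to bind, since the feedback genes read out STAT3 and IL11 is a known target of AP-1. RefSeq windows (GRCh38.p14) were found for 8 of the 10 genes, 11 windows in all, and the 250 bases before each start were read on both strands. The STAT letters TTCNNNGAA stood in 2 of the 3 LIFR windows and in no other of the 11, against 6.57% of all 35116 windows. The shorter spacing TTCNNGAA stood in SOCS3 and IL6R (6.62% of all windows). TGANTCA, the AP-1 letters loosened to any middle base, stood in IL11 as TGAGTCA and in IL22RA1 as TGAATCA (6.57%). The AP-1 site itself holds C or G there, so the IL22RA1 match falls outside it and the share counts a wider set of letters. An IRF element, GAAA repeated after a short spacer, stood in SOCS1 (3.02%). The motifs were picked with the windows at hand, the SOCS3 windows lie outside the start given by the deposited table, and a match describes letters only. The LIFR match at chr5:38557617-38557673 lies inside LIFR as the deposited table places it, away from its start there. Shown here are the matches of the ligand, the receptor and the feedback genes at trace level, 5′ to 3′ on the gene's strand, with the matching letters in capitals.
LIFR (chr5:38595538-38595594, minus strand): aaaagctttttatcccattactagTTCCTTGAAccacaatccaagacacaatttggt
LIFR (chr5:38557617-38557673, minus strand): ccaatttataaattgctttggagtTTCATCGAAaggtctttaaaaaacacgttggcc
SOCS3 (chr17:78361109-78361164, minus strand): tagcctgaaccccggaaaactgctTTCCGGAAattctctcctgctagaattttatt
SOCS1 (chr16:11256284-11256341, minus strand): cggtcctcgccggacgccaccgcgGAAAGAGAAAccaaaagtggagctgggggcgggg
IL11 (chr19:55370529-55370583, minus strand): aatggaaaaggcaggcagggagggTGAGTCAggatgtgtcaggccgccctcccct

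Of the other IL-6 family ligands, IL6 and OSM were at or near 0. IL6 had 0, 0.131 and 0 FPKM in TGFb_TFA 1 to 3, against 0.0250, 0.117 and 0.216 FPKM in TGFb 1 to 3, with a fitted log2 fold change of -1.46 and an interval of -4.95 to 2.03. That value rested on single libraries: without TGFb_TFA 2, which leaves that group at 0, the fit gave -7.20 (unadjusted p 0.0133, adjusted p 0.999 in edgeR), which is no bound on the fold, and the other fits without 1 library ran from -1.94 to -0.75. OSM, the ligand of OSMR, was listed at 0 in every library but TGFb 3, at 0.0243 FPKM. CLCF1, a ligand that signals through the CNTF receptor, had 0.961 ± 0.264 FPKM with TFA and 0.874 ± 0.0598 FPKM without (SD, n = 3 each). No other listed ligand with a row in the table reached the lowest LIF value in any library. Of the 9 listed ligands beside LIF and IL11 4 were tested and 0 called, with 2 fitted above 0 and 2 below (median -0.01).

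The lists read here were those of ligands, receptor chains, kinases and STATs, feedback genes, proteases and STAT3 targets. In edgeR without length offsets, IL11RA, the private chain for IL-11, was the only gene in them with an unadjusted p under 0.05. It had 0.156, 0.222 and 0.135 FPKM in TGFb_TFA 1 to 3, against 0.308, 0.338 and 0.239 FPKM in TGFb 1 to 3, so all TGFb_TFA libraries lay below all TGFb libraries. This gave -0.74 on the log2 scale (SE 0.30, interval -1.44 to -0.05). Its unadjusted p of 0.0392 became an adjusted p of 0.9997 in edgeR. The unadjusted p was 0.0790 with the replicate number as a block, and in edgeR it was 0.0901 without TGFb_TFA 1, 0.0924 without TGFb_TFA 3, 0.0731 without TGFb 1 and 0.118 without TGFb 2, with fitted values of -0.91 to -0.63 when each library was left out in turn. At an unadjusted p under 0.05, 0.761% of all tested genes were lower. IL20RA, which pairs with IL10RB or IL20RB to bind other cytokines of the IL-10 family, was at 15.3 ± 0.506 FPKM with TFA and 16.5 ± 0.400 FPKM without (SD, n = 3 each). Its groups did not overlap in FPKM either, but in CPM they did, with 88.0 in TGFb_TFA 3 and 86.2 in TGFb 2. Its log2 fold change was -0.07 (SE 0.12). Both tested other chains of gp130 receptors, IL11RA and IL27RA, were fitted below 0 (median -0.42), and of the 4 tested chains of IL-10 and IL-22 receptors beside IL22RA1 2 were above and 2 below (median -0.03), with 0 called in either list.

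Downstream of the receptors, 0 of 8 tested kinases and STATs were called, with 5 fitted below 0 and 3 above and a median of -0.04. STAT3 itself stood at a log2 fold change of -0.16 (SE 0.18), JAK1 at -0.10 (SE 0.17), JAK2 at -0.28 (SE 0.33) and TYK2 at 0.0022 (SE 0.12). The sign of this list turned on 1 library: without TGFb_TFA 3, 7 of the 8 were fitted above 0 and the median was 0.05. Among 18 tested other SOCS genes, phosphatases, PIAS proteins and parts of the ubiquitin ligase used by SOCS proteins, 0 were called, 11 were fitted below 0 and 7 above (median -0.07), and without TGFb_TFA 3 the split was 8 below and 10 above. CISH, the family member that STAT5 induces, stood lowest in that list at -0.73 (SE 0.38, unadjusted p 0.0927), with overlapping groups. SOCS4, SOCS5, SOCS6 and SOCS7 had -0.14, -0.04, -0.09 and -0.17, with intervals that held 0, and were more abundant than SOCS1 to SOCS3 at group means of 1.97 to 6.86 FPKM. PTPN11, the phosphatase SHP2 that SOCS3 competes with on gp130, had 0.02 (SE 0.26). Both receptor-shedding proteases, ADAM10 and ADAM17, were fitted below 0 (-0.13 and -0.01) and were not called.

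In edgeR without length offsets, 0 of 29 tested STAT3 target genes were called and 0 had an unadjusted p under 0.05. Of these genes 23 were fitted below 0 and 6 above. The median was -0.08, beside 0.01 over all tested genes, of which 48.1% were fitted below 0. The split was 21 to 24 below 0 when each library was left out in turn, and 22 below 0 with a median of -0.20 when TGFb 1 and TGFb_TFA 3 were both left out. The log2 fold change of MYC stood at -0.08 (SE 0.17), that of the kinase gene PIM1 at 0.08 (SE 0.21) and that of BCL3, a partner of NF-kB proteins, at -0.48 (SE 0.33). LCN2, an acute-phase protein of epithelia chosen after its values were seen, had 67.1, 61.1 and 74.8 FPKM in TGFb_TFA 1 to 3, against 78.1, 92.0 and 90.1 FPKM in TGFb 1 to 3. These FPKM groups did not overlap, as in 3.73% of all tested genes on the lower side. In this list the same held for JUNB and LRG1, whose groups overlapped in CPM. In CPM the LCN2 groups overlapped, with 151 in TGFb_TFA 3 and 137 in TGFb 1. The log2 fold change was -0.31 (SE 0.17, unadjusted p 0.102 in edgeR). With length offsets it was -0.36, with an interval of -0.63 to -0.09 that does not hold 0 (unadjusted p 0.0162 in edgeR).

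The deposited table itself tags 126 genes with the KEGG term for Jak-STAT signalling, all 10 genes described here among them. Of these 102 were tested and 0 called, with 44 fitted above 0, 58 below and a median of -0.02. At an unadjusted p under 0.05 stood IL7 (0.55, SE 0.18), an epithelial cytokine for lymphocytes, PDGFRA (3.39, SE 1.25), a growth factor receptor that is also on the fibroblast list, and IL11RA on the lower side. That was 2 of the 102 higher and 1 lower, against 1.07% of all tested genes higher and 0.761% lower. Fibroblast markers were fitted above 0 in all 7 tested members with a median of 2.85, 0 of them called by edgeR. Without TGFb 1 and TGFb_TFA 3 the median was 1.78. In that list COL1A1 (2.93, SE 1.01), COL1A2 (2.85, SE 1.17) and COL6A3 (3.56, SE 1.04) also had an unadjusted p under 0.05 in edgeR. With PDGFRA these were 4 of the 7, against 1.07% of all tested genes on the higher side. The COL1A1 groups overlapped. In the DESeq2 Wald test the unadjusted p was 0.105 for COL1A2, 0.0169 for COL1A1, 0.0147 for PDGFRA and 0.000237 for COL6A3 (adjusted p 0.168). COL6A3 had 101, 264 and 40 counts in TGFb_TFA 1 to 3, against 16, 0 and 20 in TGFb 1 to 3. PDGFRA had 11, 12 and 18 counts against 0, 0 and 4. It passed the filter on its TGFb_TFA libraries alone, so its sign was largely set by the filter. The 9 tested epithelial markers had 0 called, 3 above 0 and 6 below (median -0.06).

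**Figure D4:**
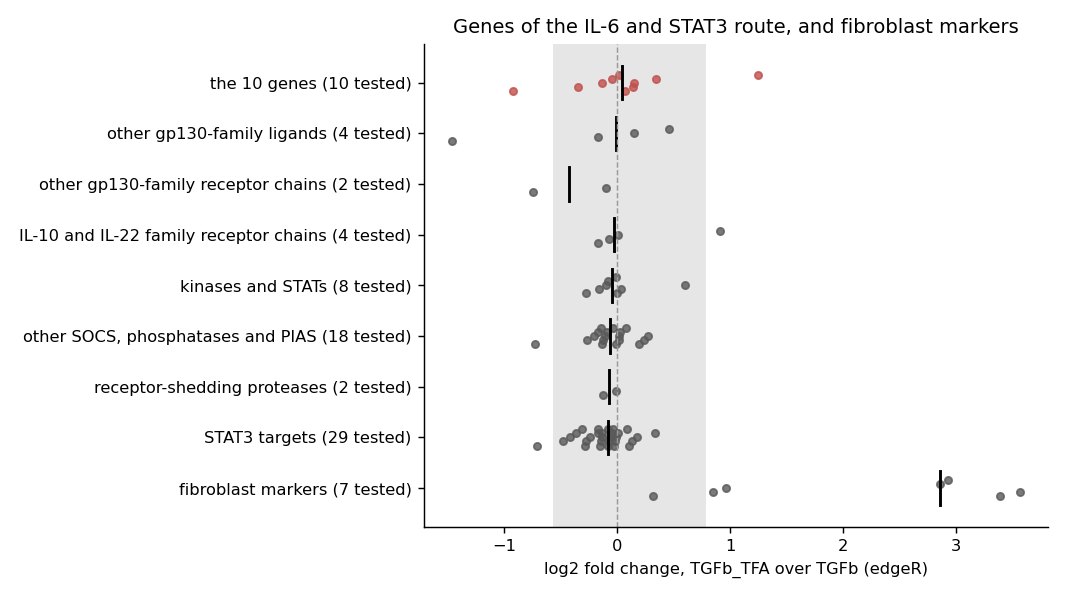
Log2 fold changes, TGFb_TFA over TGFb, of each tested gene in the lists named on the left, with a bar at each list's median; the grey band runs from the 5th to the 95th percentile of all tested genes (-0.57 to 0.78). The 10 genes (red) have a median of 0.04 and the STAT3 targets one of -0.08, inside the band, while the fibroblast markers reach 3.56.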

How the data were processed

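Poly(A) RNA of 6 DLD-1 libraries was sequenced, with strand kept by dUTP labelling, per the labels' protocols. GRCh38 was the build, and StringTie 1.3.4d, HISAT2 2.0.4 and cutadapt 1.9 were used, per the submitters' processing notes. The authors deposited 1 table, which holds estimated counts and FPKM values for every gene and library. The deposited estimated counts are whole numbers, 60361756 to 68745953 per library, and may derive from coverage. Deposited FPKM values already correct for length and library total. Counts were fitted in edgeR 4.0.16 (R 4.3.3): filterByExpr, TMM scaling, group as the only term, glmQLFTest (2-sided), Benjamini-Hochberg adjustment over 18265 genes, called at an adjusted p under 0.05. Intervals are 95%, and SE is the log2 fold change over the square root of F. Alternatives used limma 3.58.1 on log2(FPKM + 0.5) and DESeq2 1.42.0.

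The 10 genes and all lists were chosen with earlier results of these data known. Named genes were the 10 genes, a fixed set of pathway genes and list genes at an unadjusted p under 0.05. Also named were the 3 genes nearest to IL6ST and to SOCS3, sought where CPM averaged 1 or more. Lists are described by counts and medians, with no list test. No 2 libraries of a group agreed within sampling noise (lowest chi-square per degree of freedom 12.6 on the counts, or 3.16 at 4 counts per fragment). Endothelial (5 tested, all fitted above 0, median 1.11) and haematopoietic markers (2 tested, median -0.01) had no called gene. Exon overlaps are from GENCODE 29; positions of windows are from RefSeq.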

Additional observations from a re-analysis of the deposited data

How the results depend on the processing

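None of the 10 genes was called in any of the 17 alternatives, which tested 4 to 10 of them. DESeq2 called 13 genes in all, against 2 in edgeR, and leaving out 1 library gave 1 to 3. With the replicate number as a block 1 gene was called. Same-numbered libraries had correlations of deviations of 0.04, -0.12 and -0.13, and the highest, 0.21, was between TGFb_TFA 3 and TGFb 2. Deviations are centred on each group's mean, which ties these correlations to one another. They therefore cannot decide whether the numbers pair the libraries. The block turned OSMR to 0.72, IL22RA1 to -0.015, TYK2 to -0.00053 and SMG1P6 to 0.032.

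Without TGFb 1 and TGFb_TFA 3 the sign turned for IL6ST (0.33), SOCS1 (-0.41), SOCS3 (-0.32), IL10RB (-0.19), JAK1 (0.065), JAK2 (0.084), SOCS4 (0.22), SOCS5 (0.19), SOCS6 (0.065), PIM1 (-0.031), DDX46 (0.32), SREK1 (0.31), EHBP1 (0.38) and AC011495 (-0.21). On FPKM with pseudocounts of 0.5, 0.1 and 1 it turned for IL22RA1 (-0.021, -0.041 and -0.011), IL10RB (-0.022, -0.026 and -0.019), TYK2 (-0.026, -0.031 and -0.022) and PTPN11 (-0.027, -0.028 and -0.026), and with no filter for TYK2 (-0.0050). The causes were not tested.

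Leaving out 1 library turned the sign of IL6ST (-0.37 to 0.19), OSMR (-0.63 to 0.56), IL22RA1 (-0.20 to 0.19), SOCS1 (-0.16 to 0.80), SOCS2 (-0.031 to 0.18), IL10RB (-0.12 to 0.10), JAK1 (-0.21 to 0.020), JAK2 (-0.50 to 0.038), TYK2 (-0.050 to 0.061), SOCS4 (-0.34 to 0.070), SOCS5 (-0.17 to 0.10), SOCS6 (-0.21 to 0.058), PTPN11 (-0.16 to 0.23), PIM1 (-0.10 to 0.21), DDX46 (-0.38 to 0.20), SREK1 (-0.43 to 0.18), EHBP1 (-0.32 to 0.25) and SMG1P6 (-0.35 to 0.42). Without 1 library SOCS3 ran from 0.0011 to 0.82 and LIFR from 0.66 to 2.04. Over all alternatives IL6R ran from -0.47 to -0.13 and LIF from 0.07 to 0.25. At the counts of LIFR, OSMR, IL11, SOCS1 and SOCS3, differences of over 2-fold lie inside the intervals; the causes of their width were not tested.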
